A study of Bos taurus with 22 samples.

Results

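DNA repair genes of 5 pathways were followed in the jejunal mucosa of Holstein steers. The set was fixed by gene symbol and holds 47 genes, of which 46 have a row in a table of 27570 genes, with 6 for mismatch repair, 11 for base excision repair, 10 for nucleotide excision repair, 10 for the Fanconi pathway and 9 for homologous repair. No row was found under the symbol UNG, which is not analysed here, and FANCB was too low to be tested between the injections, which leaves 45 genes tested there. The steers were 10 to 12 months old, and all of them received raw corn starch by abomasal infusion at 3.94 g/kg of body weight daily for 7 d. The infusion carried either water or casein (1.30 g/kg of body weight daily), and subcutaneous injections gave either glucagon-like peptide 2 (GLP-2, a gut hormone known for promoting growth of the intestinal lining, 100 µg/kg of body weight daily) or its vehicle, which holds bovine serum albumin (BSA). The 22 steers were 5 control (water and BSA), 5 GLP-2 (water and GLP-2), 6 casein (casein and BSA) and 6 casein + GLP-2, each in 1 of 6 body weight blocks. The blocks were not complete, with no control steer in block 6 and no steer of the GLP-2 treatment in block 2. Pooled over the infusions, 11 GLP-2 steers were set against 11 BSA steers, and pooled over the injections, 12 casein steers against 10 water steers. Mucosa is a mixed tissue, so that fewer cells of a type and less RNA per cell cannot be told apart.

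Mismatch repair corrects errors left behind by the replication fork. Base excision repair removes small damaged bases through glycosylases, an endonuclease and a ligase, and its long-patch branch shares its flap endonuclease and its ligase with DNA replication. Nucleotide excision repair cuts out bulky lesions, such as those made by ultraviolet light, in dividing and resting cells alike. The Fanconi pathway unhooks crosslinks between DNA strands and hands the breaks to homologous repair, which copies the sister chromatid and therefore works mainly in cells that have replicated their DNA. In the intestine, dividing cells lie in the crypts and in the germinal centers of lymphoid follicles, while villus cells no longer divide.

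On the scale of level per length (FPKM, read count scaled by gene length and library size), the repair genes spanned a wide range over the 22 steers. The highest median level was that of APEX1, the main abasic site endonuclease, at 47.1 FPKM. The next were DDB2 (37.6 FPKM) and DDB1 (35.9 FPKM), which together form the sensor of ultraviolet damage. ERCC1, a subunit of the nuclease that cuts beside a bulky lesion, had a median level of 23.8 FPKM, and XPC, the lesion sensor of the whole genome, had 18.4 FPKM. Thus 4 of the 5 highest medians belonged to nucleotide excision repair. The lowest medians were those of FANCB (0.137 FPKM), EXO1 (0.546 FPKM), NEIL3 (0.636 FPKM), BRIP1 (0.877 FPKM) and FANCD2 (1.13 FPKM). Read counts behind these low levels were small, with a median of 5 counts per steer for FANCB, 23 for NEIL3 and 46 for EXO1, while APEX1 had a median of 833.

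**Figure D1:**
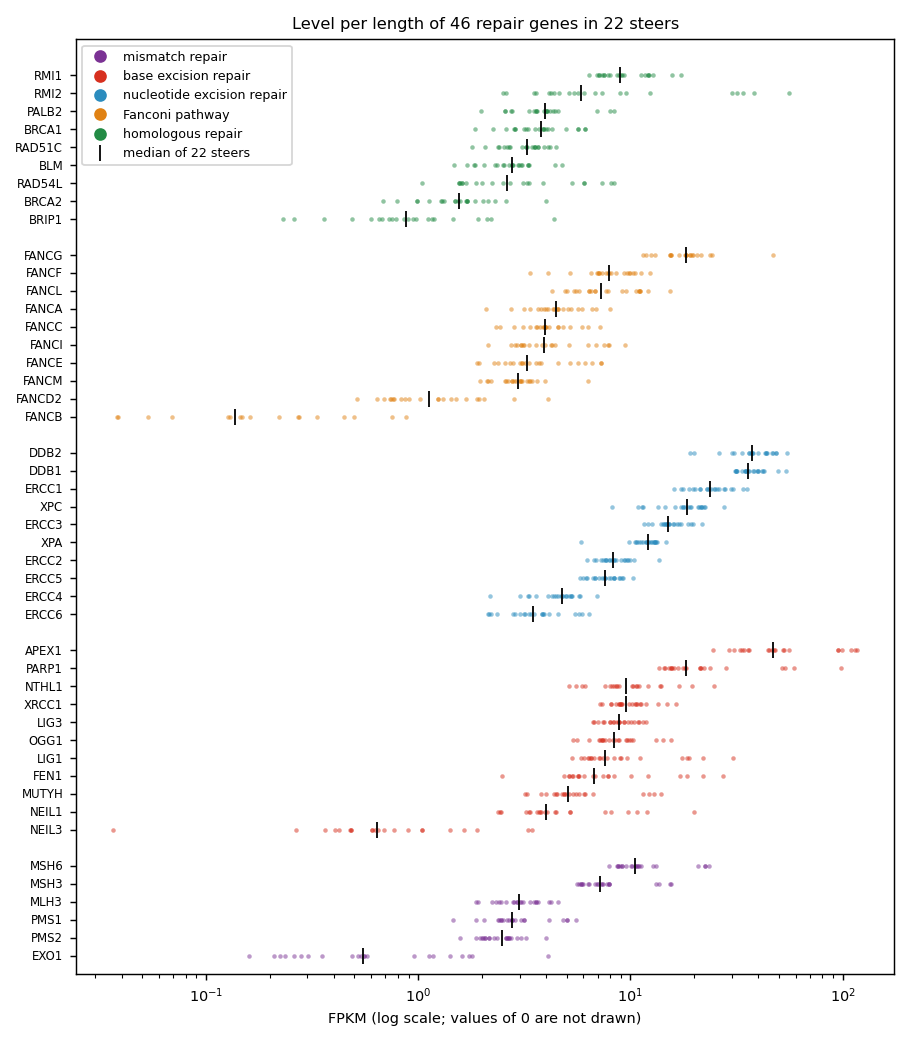
Level per length (FPKM, log scale) of 46 repair genes. Each point is 1 of 22 steers, the vertical tick is the median, and colours mark the 5 pathways. APEX1, DDB2 and DDB1 lie at the top with medians of 47.1, 37.6 and 35.9 FPKM, and the points of RMI2, PARP1, FEN1 and EXO1 are spread far wider than those of the nucleotide excision genes.

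Library totals were 8809666 to 28447810 counts. Markers of villus enterocytes were present in every steer, with a summed level of 3361 to 144014 CPM (counts scaled by library size) over 19 genes. Of 7 markers of crypt stem cells, OLFM4, SMOC2, RGMB, AXIN2 and EPHB2 had counts in every steer. LGR5, the defining marker, had a count of 0 in 10 steers, and ASCL2 in 1. The B cell follicle score, which is the mean log2 CPM of 14 genes, was above 6 in 4 BSA steers (control replicates 1, 3 and 5 and casein replicate 3, lowest 6.01). It reached at most 3.80 in the other BSA steers and lay between 1.16 and 2.79 in the 11 GLP-2 steers. These 4 steers also had proliferation scores (mean log2 CPM of 20 mitotic genes) of 5.66 to 5.96, while the other 18 steers had 3.69 to 5.70. The counts between GLP-2 and BSA, each gene that passed the threshold and the comparisons under each infusion are therefore given with all steers and without these 4.

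With exogenous GLP-2, 10 repair genes were lower than with BSA and 1 was higher. Base excision repair held 6 of the 10 lower genes, the Fanconi pathway 2 and homologous repair 2, and the higher gene, DDB2, belongs to nucleotide excision repair. The test was edgeR's quasi-likelihood test, with p-values adjusted over all genes by Benjamini and Hochberg. Lower calls (adjusted p of 0.05 or less) made up 10 of 45 repair genes, against 8.37% of the 13928 genes tested. Higher calls made up 1 of 45, against 5.13% of all genes. Before adjustment, at a p of 0.05 or less, 20 repair genes were lower and 3 higher, against 18.1% and 16.5% of all genes. The fitted log2 difference (GLP-2 minus BSA) was below 0 for 36 of the 45 repair genes, with a median of -0.31, compared with 0.01 for all genes tested.

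With the replicate block as a term, 3 repair genes remained lower (APEX1, FEN1 and RMI2) and 0 higher, where all genes gave 2.43% lower and 2.52% higher. At an unadjusted p within 0.05, the block fit had 17 lower and 3 higher, against 15.4% and 17.8% of all genes. A DESeq2 fit with the same block had 10 lower and 1 higher past the adjusted threshold, against 11.1% and 12% of all genes. Without the 4 steers rich in follicle markers, edgeR called 0 repair genes, as it did of all 14285 genes then tested, and 5 lower and 1 higher had an unadjusted p within 0.05 (6 of 45), where 13.5% of all genes did. The repair genes were thus near the share of all genes in that fit. Their median log2 difference was then -0.12, with -0.21 for base excision repair, -0.29 for the Fanconi pathway, 0.14 for homologous repair, -0.07 for mismatch repair and -0.04 for nucleotide excision repair.

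**Figure D2:**
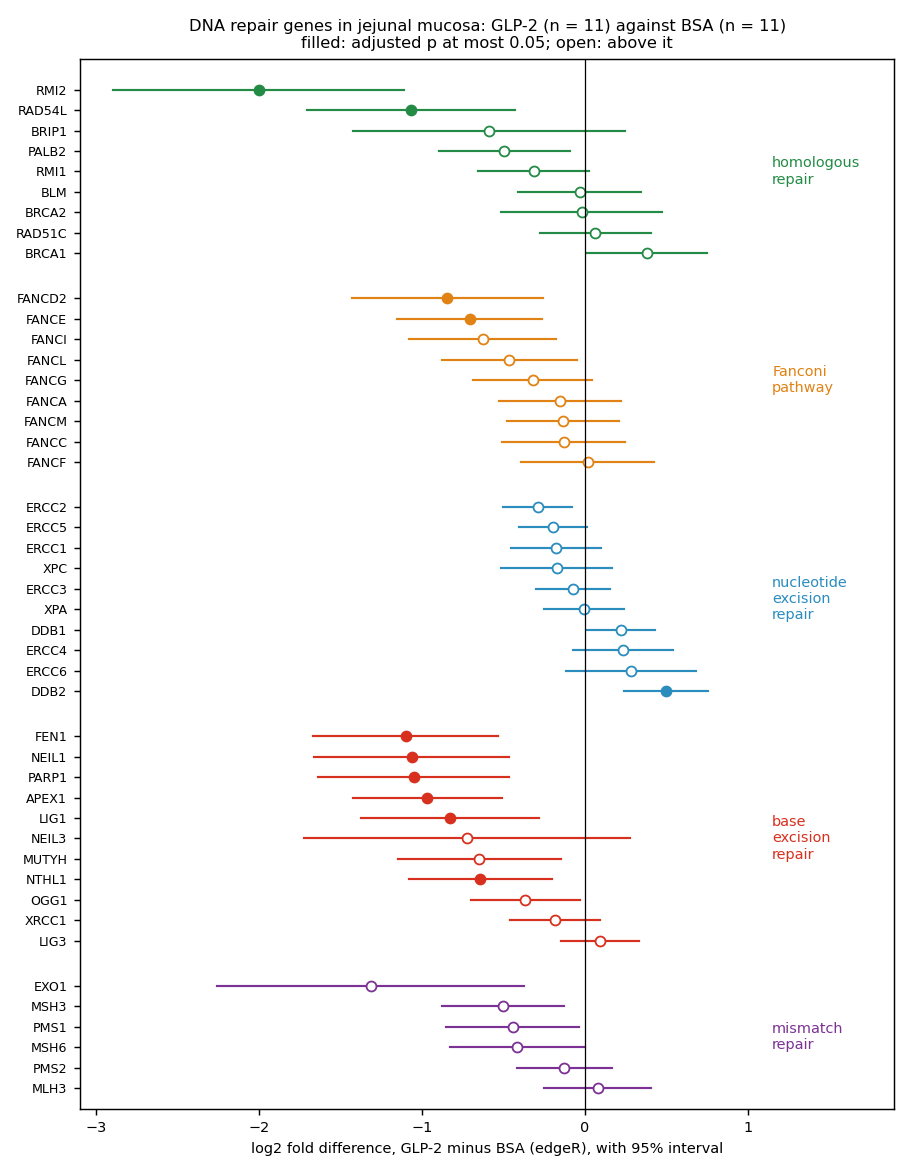
Fitted log2 difference of GLP-2 minus BSA (11 steers each) for 45 repair genes, grouped by pathway, with 95% intervals. Filled points passed an adjusted p of 0.05: 6 in base excision repair, 2 in the Fanconi pathway and 2 in homologous repair lie below 0, and DDB2 of nucleotide excision repair lies above 0.

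Base excision repair had the most calls, with 6 of its 11 genes lower and 0 higher, and a median log2 difference of -0.72. The called genes belong to several steps: the glycosylases NEIL1 and NTHL1, which remove oxidized bases, the endonuclease APEX1, the strand break sensor PARP1, the flap endonuclease FEN1 and the ligase LIG1. They do not stand for the whole pathway. The mean log2 CPM of 19 further base excision genes was 4.61 ± 0.16 in BSA and 4.51 ± 0.09 in GLP-2 steers (SD).

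APEX1 (ENSBTAG00000002745, ARS-UCD1.2 chromosome 10, 26670901 to 26673480) was at 40.5, 135 and 168 CPM in the lowest, median and highest BSA steer, and at 34.2, 50.6 and 75.5 CPM in the GLP-2 steers. All 11 GLP-2 steers lay below the BSA median and 7 BSA steers lay above every GLP-2 steer, although the ranges overlapped. Its mean was 116 ± 54.6 CPM in control (SD, n = 5), 60.1 ± 13.1 in GLP-2 (n = 5), 105 ± 48.1 in casein (n = 6) and 50.9 ± 10.8 in casein + GLP-2 (n = 6). The log2 difference was -0.97 ± 0.22 (SE, edgeR adjusted p = 0.0202), a level 1.96-fold lower with GLP-2, and was -0.87 with the replicate block (adjusted p = 0.0482).

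FEN1 (ENSBTAG00000000064, chromosome 29, 40236821 to 40241623), which trims displaced flaps, was at 10.6, 16.7 and 55.3 CPM in the lowest, median and highest BSA steer, and at 4.87, 11.2 and 19.6 CPM with GLP-2. Of the GLP-2 steers, 5 lay below every BSA steer, and 5 BSA steers lay above every GLP-2 steer. Mean levels were 32.3 ± 18.8 CPM in control, 13.0 ± 4.17 in GLP-2, 19.6 ± 9.66 in casein and 10.4 ± 2.98 in casein + GLP-2 (SD). GLP-2 minus BSA was -1.10 ± 0.28 on the log2 scale (SE, edgeR adjusted p = 0.0226), and -1.004 with the replicate block (adjusted p = 0.0482).

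PARP1 (ENSBTAG00000000837, chromosome 16, 29365008 to 29406357), which binds strand breaks and recruits repair factors, was at 53.8, 82.9 and 373 CPM in the lowest, median and highest BSA steer, and at 50.5, 57.5 and 103 CPM with GLP-2. The 4 steers above every GLP-2 steer were the 4 with a high follicle score, at 197 to 373 CPM, and the other BSA steers overlapped the GLP-2 range. Mean levels were 188 ± 119 CPM in control, 69.0 ± 22.5 in GLP-2, 94.9 ± 64.5 in casein and 61.0 ± 4.58 in casein + GLP-2 (SD). Its log2 difference was -1.05 ± 0.29 (SE, edgeR adjusted p = 0.0255, or 0.0582 with the replicate block), and without those 4 steers it was -0.17.

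NEIL1 (chromosome 21, 33464548 to 33471171) had a median level of 16.7 CPM in BSA and 8.12 CPM in GLP-2 steers, and all 11 GLP-2 steers lay below the BSA median. Its log2 difference was -1.06 ± 0.29 (edgeR adjusted p = 0.0255, or 0.0586 with the block). LIG1 (chromosome 18, 54865681 to 54893345), which seals nicks at the replication fork, ranged from 21.8 to 108 CPM in BSA and from 18.0 to 38.9 CPM in GLP-2 steers, with a log2 difference of -0.83 ± 0.26 (edgeR adjusted p = 0.0421, or 0.0812 with the block). NTHL1 (chromosome 25, 1589481 to 1595175) differed by -0.64 ± 0.21 on the log2 scale (edgeR adjusted p = 0.0468, or 0.0644 with the block). NTHL1 shares 12 bases with TSC2 on the opposite strand.

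The remaining genes of the pathway did not pass the threshold. The glycosylase MUTYH, which removes adenine paired with oxidized guanine, differed by -0.65 ± 0.24 (adjusted p = 0.0693 in edgeR), and its 4 highest steers were the 4 with a high follicle score. NEIL3, a glycosylase of dividing cells, differed by -0.72 with an SE of 0.49, and OGG1, the glycosylase for oxidized guanine itself, by -0.37 ± 0.16. The scaffold XRCC1 (-0.18 ± 0.13) and its partner ligase LIG3 (0.09 ± 0.12) are the end of the short-patch branch. LIG3 was at 24.3 to 41.8 CPM in BSA steers and at 23.6 to 40.9 CPM in GLP-2 steers, so that both groups covered almost the same range, and the 95% interval of its log2 difference was -0.15 to 0.33. The interval of LIG1 was -1.37 to -0.28.

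Beside these genes, the 20 genes of the DNA replication list had 15 lower and 1 higher call (median log2 difference -1.04), the 20 proliferation genes 8 lower and 0 higher, and the B cell follicle genes 12 lower of 13 tested, with a median of -2.79. Summed B cell follicle levels were 152 to 2671 CPM in BSA and 121 to 175 CPM in GLP-2 steers. Without the 4 steers rich in follicle markers the log2 difference was -0.60 for APEX1, -0.56 for FEN1, -0.56 for NTHL1, -0.38 for NEIL1 and -0.21 for LIG1, and each had an adjusted p of 0.320 or more in edgeR. With the follicle score as a covariate it was -0.26 for APEX1 and 0.10 for PARP1. The part of these cells in the result was not tested further.

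**Figure D3:**
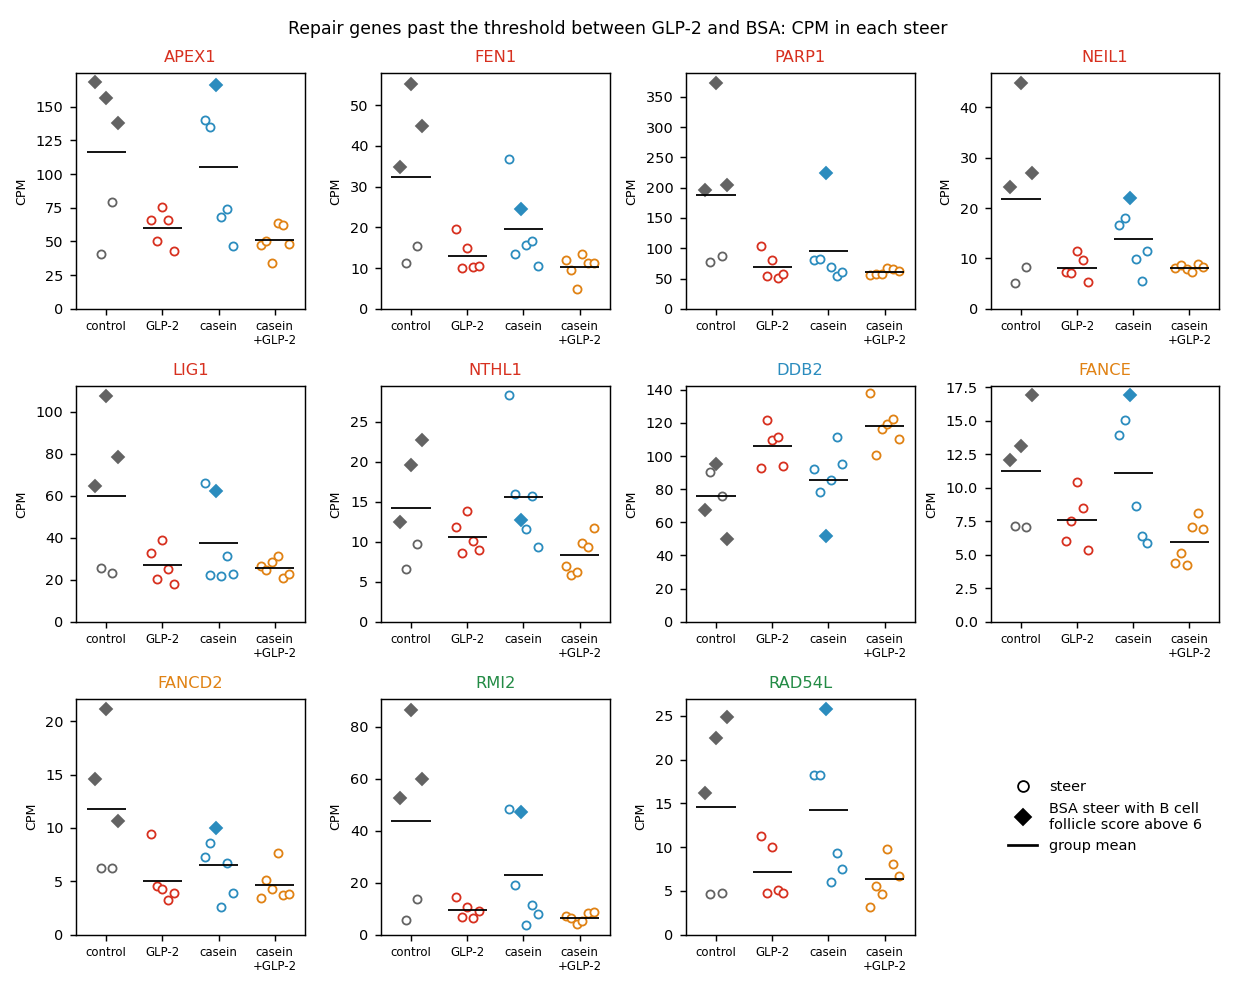
CPM of the 11 repair genes past the threshold, by treatment. Each symbol is a steer, filled diamonds are the 4 BSA steers with a B cell follicle score above 6, and the line is the group mean. For PARP1 the diamonds (197 to 373 CPM) lie above every other steer, for APEX1 open BSA symbols reach 140 CPM, and for DDB2 all 11 GLP-2 steers lie above the BSA median of 85.5 CPM.

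Homologous repair had the repair gene with the largest log2 difference, and 2 of its 9 genes were lower. RMI2 (ENSBTAG00000026375, chromosome 25, 9989195 to 9994633) belongs with BLM and RMI1 to the complex that dissolves crossed-over DNA intermediates. It was at 3.84, 19.0 and 86.6 CPM in the lowest, median and highest BSA steer, and at 3.88, 7.01 and 14.3 CPM with GLP-2. All GLP-2 steers lay below the BSA median. The 6 BSA steers above every GLP-2 steer were the 4 rich in follicle markers together with casein replicate 1 (48.5 CPM) and casein replicate 2 (19.0 CPM). In these 6 steers the mean log2 CPM of the 19 villus enterocyte genes was 6.17 to 8.79, and every other steer had 9.01 or more. The part of this difference in the level of RMI2 was not tested. Mean levels were 43.7 ± 33.8 CPM in control, 9.40 ± 3.23 in GLP-2, 22.9 ± 19.9 in casein and 6.55 ± 1.78 in casein + GLP-2 (SD). GLP-2 minus BSA was -2.004 ± 0.43 on the log2 scale (SE, edgeR adjusted p = 0.0189), which is a 4.01-fold lower level, and -1.67 with the replicate block (adjusted p = 0.0482).

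Its partners in the complex had other values. The helicase BLM was at 7.16 to 23.7 CPM in BSA and 8.27 to 21.0 CPM in GLP-2 steers, with a log2 difference of -0.03 and a 95% interval of -0.41 to 0.34. RMI1 differed by -0.31, with an interval of -0.66 to 0.03. The interval of RMI2, -2.90 to -1.11, lay below both. Without the 4 follicle-rich steers RMI2 differed by -0.99 (edgeR adjusted p = 0.326), and with the follicle score as a covariate by -0.21 (adjusted p = 0.994).

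RAD54L (ENSBTAG00000019901, chromosome 3, 99817882 to 99844140), a motor that helps the repair filament invade the sister strand, was at 4.64, 16.2 and 25.8 CPM in the lowest, median and highest BSA steer, and at 3.10, 5.54 and 11.3 CPM with GLP-2. All GLP-2 steers lay below the BSA median, and the same 6 BSA steers as for RMI2 lay above every GLP-2 steer. Mean levels were 14.6 ± 9.58 CPM in control, 7.19 ± 3.23 in GLP-2, 14.2 ± 7.78 in casein and 6.31 ± 2.41 in casein + GLP-2 (SD). The log2 difference was -1.07 ± 0.31 (SE, edgeR adjusted p = 0.0310, or 0.0791 with the replicate block), and -0.54 without the 4 steers.

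BRCA1, which directs broken ends toward homologous repair, had the largest difference of the opposite sign. It was at 12.7, 26.4 and 29.6 CPM in the lowest, median and highest BSA steer, and at 19.3, 25.3 and 41.3 CPM with GLP-2, so that the medians were close and the 5 highest GLP-2 steers lay above every BSA steer. Mean levels were 23.9 ± 6.00 CPM in control, 26.8 ± 8.21 in GLP-2, 22.2 ± 5.86 in casein and 31.6 ± 9.69 in casein + GLP-2 (SD). Its log2 difference was 0.38 ± 0.18 (SE, edgeR adjusted p = 0.133), and 0.36 without the 4 follicle-rich steers. BRCA2, the loader of the recombinase, differed by -0.02 with an interval of -0.51 to 0.47, and PALB2, which bridges BRCA1 and BRCA2, by -0.49 ± 0.19 (edgeR adjusted p = 0.0817). BRIP1, a helicase bound by BRCA1, differed by -0.59 ± 0.40, and RAD51C, a member of the recombinase family, by 0.06 ± 0.16.

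In the Fanconi pathway 2 of 9 tested genes were lower with GLP-2 and 0 higher, with a median log2 difference of -0.32. FANCE (ENSBTAG00000019492, chromosome 23, 9415902 to 9425051), the core complex subunit that binds FANCD2, was at 5.84, 12.04 and 17.0 CPM in the lowest, median and highest BSA steer, and at 4.23, 6.89 and 10.5 CPM with GLP-2. All 11 GLP-2 steers lay below the BSA median and 4 lay below every BSA steer. Mean levels were 11.3 ± 4.19 CPM in control, 7.57 ± 2.02 in GLP-2, 11.1 ± 4.77 in casein and 5.96 ± 1.60 in casein + GLP-2 (SD). Its log2 difference was -0.71 ± 0.22 (SE, edgeR adjusted p = 0.0362, or 0.0730 with the replicate block), and -0.44 without the 4 follicle-rich steers.

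FANCD2 (ENSBTAG00000010077, chromosome 22, 16737949 to 16789121) and FANCI form the clamp that the core complex marks with ubiquitin. FANCD2 was at 2.62, 7.25 and 21.2 CPM in the lowest, median and highest BSA steer, and at 3.23, 4.25 and 9.41 CPM with GLP-2, and its 4 highest steers were the 4 rich in follicle markers. Mean levels were 11.8 ± 6.29 CPM in control, 5.06 ± 2.48 in GLP-2, 6.49 ± 2.80 in casein and 4.67 ± 1.59 in casein + GLP-2 (SD). The log2 difference was -0.84 ± 0.28 (SE, edgeR adjusted p = 0.0498, or 0.102 with the replicate block), and -0.29 without those steers. FANCI differed by -0.63 ± 0.22 (edgeR adjusted p = 0.0548), or by -0.32 without the 4 steers, with all 11 GLP-2 steers below the BSA median.

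FANCL, the ubiquitin ligase of the core complex, differed by -0.46 ± 0.20 (edgeR adjusted p = 0.106), again with every GLP-2 steer below the BSA median. The core subunits FANCG (-0.32 ± 0.18), FANCA (-0.15 ± 0.18) and FANCC (-0.13 ± 0.18), and FANCM, the translocase that anchors the complex to DNA (-0.13 ± 0.17), had smaller log2 differences. FANCF, the adaptor of the core complex, was at 4.15, 9.78 and 13.7 CPM in the lowest, median and highest BSA steer, and at 4.82, 9.12 and 14.9 CPM with GLP-2. Its log2 difference was 0.02 with a 95% interval of -0.39 to 0.42, the only one above 0 in the pathway. FANCB had 0 to 28 counts in a steer.

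Mismatch repair had 0 calls among its 6 genes by edgeR, 4 lower at an unadjusted p within 0.05 (against 18.1% of all genes), and 2 lower calls by DESeq2 (against 12.4%). EXO1 (ENSBTAG00000009396, chromosome 16, 34954133 to 35000907), the exonuclease that removes the mismatched strand, had the smallest p. It was at 1.40, 7.63 and 26.7 CPM in the lowest, median and highest BSA steer, and at 1.00, 3.12 and 6.96 CPM with GLP-2. All GLP-2 steers lay below the BSA median, and 6 BSA steers, the same as for RMI2, lay above every GLP-2 steer. Mean levels were 6.67 ± 4.17 CPM in control, 3.33 ± 2.22 in GLP-2, 9.13 ± 9.60 in casein and 3.02 ± 1.78 in casein + GLP-2 (SD). In the fit it differed by -1.31 ± 0.46 on the log2 scale (SE, edgeR adjusted p = 0.0550), and by -0.57 without the 4 follicle-rich steers.

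The mismatch sensors MSH3 (-0.50 ± 0.18, edgeR adjusted p = 0.0614) and MSH6 (-0.41 ± 0.20, adjusted p = 0.144) had smaller log2 differences and did not pass. MSH6 was at 91.9 to 104 CPM in the 4 follicle-rich steers and at 34.4 to 55.7 CPM in the other 18, and MSH3 was at 56.1 to 66.1 CPM in those 4 and at 23.5 to 33.0 CPM in the rest, so that for both genes the 4 steers stood clear of all others. Without them MSH3 differed by -0.02. PMS1 differed by -0.44 ± 0.20 and PMS2, the endonuclease subunit, by -0.13 ± 0.14. MLH3, best known from meiotic crossing over, was at 8.60, 13.4 and 19.4 CPM in the lowest, median and highest BSA steer, and at 8.71, 13.5 and 20.8 CPM with GLP-2, with a log2 difference of 0.08 ± 0.16.

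Nucleotide excision repair had 1 call, DDB2 of its ultraviolet damage sensor. The mean log2 CPM of its 10 genes was 5.46 ± 0.07 in control, 5.47 ± 0.07 in GLP-2, 5.53 ± 0.08 in casein and 5.54 ± 0.04 in casein + GLP-2 (SD over steers). The same mean over the base excision genes was 4.72 ± 0.72, 4.00 ± 0.30, 4.31 ± 0.48 and 3.93 ± 0.13. Of the 10 genes edgeR called 0 lower and 1 higher, and the median log2 difference was -0.04.

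DDB2 (ENSBTAG00000020999, chromosome 15, 77097152 to 77118221) was at 49.7, 85.5 and 111 CPM in the lowest, median and highest BSA steer, and at 92.8, 111 and 138 CPM with GLP-2. All 11 GLP-2 steers lay above the BSA median, with the ranges overlapping between 92.8 and 111 CPM. Mean levels were 75.7 ± 18.3 CPM in control, 106 ± 12.3 in GLP-2, 85.7 ± 20.0 in casein and 118 ± 12.4 in casein + GLP-2 (SD). GLP-2 minus BSA was 0.50 ± 0.13 on the log2 scale (SE, edgeR adjusted p = 0.0229), and 0.50 with the replicate block, where the adjusted p was 0.0503. The 3 lowest steers were control replicate 5 (49.7 CPM), casein replicate 3 (51.8 CPM) and control replicate 1 (67.3 CPM), all with a high follicle score. The other steer with a high follicle score, control replicate 3, was the second highest of the 11 BSA steers. Without these 4 steers the log2 difference was 0.33 (edgeR adjusted p = 0.320).

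Its partner DDB1 differed by 0.22 ± 0.10 on the log2 scale (edgeR adjusted p = 0.122), with 9 of 11 GLP-2 steers above the BSA median. ERCC2, a helicase of the general transcription factor TFIIH, had the largest difference in the other direction. It was at 28.9, 36.6 and 54.0 CPM in the lowest, median and highest BSA steer, and at 23.9, 29.3 and 37.1 CPM with GLP-2, with means of 39.0 ± 9.31 CPM in control, 29.9 ± 4.84 in GLP-2, 35.4 ± 4.04 in casein and 29.4 ± 2.58 in casein + GLP-2 (SD). Its log2 difference was -0.29 ± 0.10 (SE, edgeR adjusted p = 0.0588), or -0.19 without the 4 steers, with 10 of 11 GLP-2 steers below the BSA median.

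The other nucleotide excision genes had log2 differences between -0.19 and 0.29, and none passed the threshold. ERCC3, the other TFIIH helicase, differed by -0.07 ± 0.11, and XPA, the scaffold of the incision complex, by 0.00 ± 0.12, with an interval of -0.25 to 0.24. The nuclease ERCC5 differed by -0.19 ± 0.10, and ERCC1 by -0.18 ± 0.13, while ERCC4, the catalytic partner of ERCC1, differed by 0.23 ± 0.15. XPC differed by -0.17 ± 0.17 and ERCC6, the coupling factor to transcription, by 0.29 ± 0.19. Villus enterocyte genes had 3 higher and 0 lower calls of 19 with GLP-2 (median log2 difference 1.06), and the part of that shift in the level of DDB2 was not tested.

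The repair genes also differed in their spread across steers. The highest steer was above the lowest by 26.7-fold for EXO1 (13 counts in its lowest steer), 22.6-fold for RMI2 (41 counts) and 19.2-fold for BRIP1 (21 counts), but by 1.72-fold for DDB1, 1.81-fold for ERCC5 and 1.88-fold for ERCC3. NEIL3 had 1 count in its lowest steer, too few for such a ratio. One of the 4 follicle-rich BSA steers was the highest of all 22 for 30 of 46 repair genes, with casein replicate 3 the highest for 14 and control replicate 3 for 9. Of the 10 lower genes, 9 had their highest value in one of these steers, and for 3 of them (PARP1, NEIL1 and FANCD2) the 4 highest values were exactly these steers. GLP-2 replicate 1 had the highest proliferation score of the GLP-2 steers (5.42) beside a follicle score of 1.99. For some genes, picked after their values were seen, it also had the highest level among GLP-2 steers. These were EXO1 (6.96 CPM), FEN1 (19.6 CPM), FANCD2 (9.41 CPM), BRIP1 (7.80 CPM) and RAD54L (11.3 CPM). Of the 10 lower genes, PARP1 and RMI2 were also highest there. The rest of the 10 were highest in GLP-2 replicate 4, which had a proliferation score of 4.74: APEX1 (75.5 CPM), LIG1 (38.9 CPM), NEIL1 (11.5 CPM), NTHL1 (13.8 CPM) and FANCE (10.5 CPM). Casein replicate 1, with a proliferation score of 5.70 and a follicle score of 3.39, had the highest value of all steers for 6 repair genes, among them NTHL1 (28.3 CPM), FANCG (116 CPM), FANCA (39.6 CPM) and PALB2 (33.9 CPM).

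**Figure D4:**
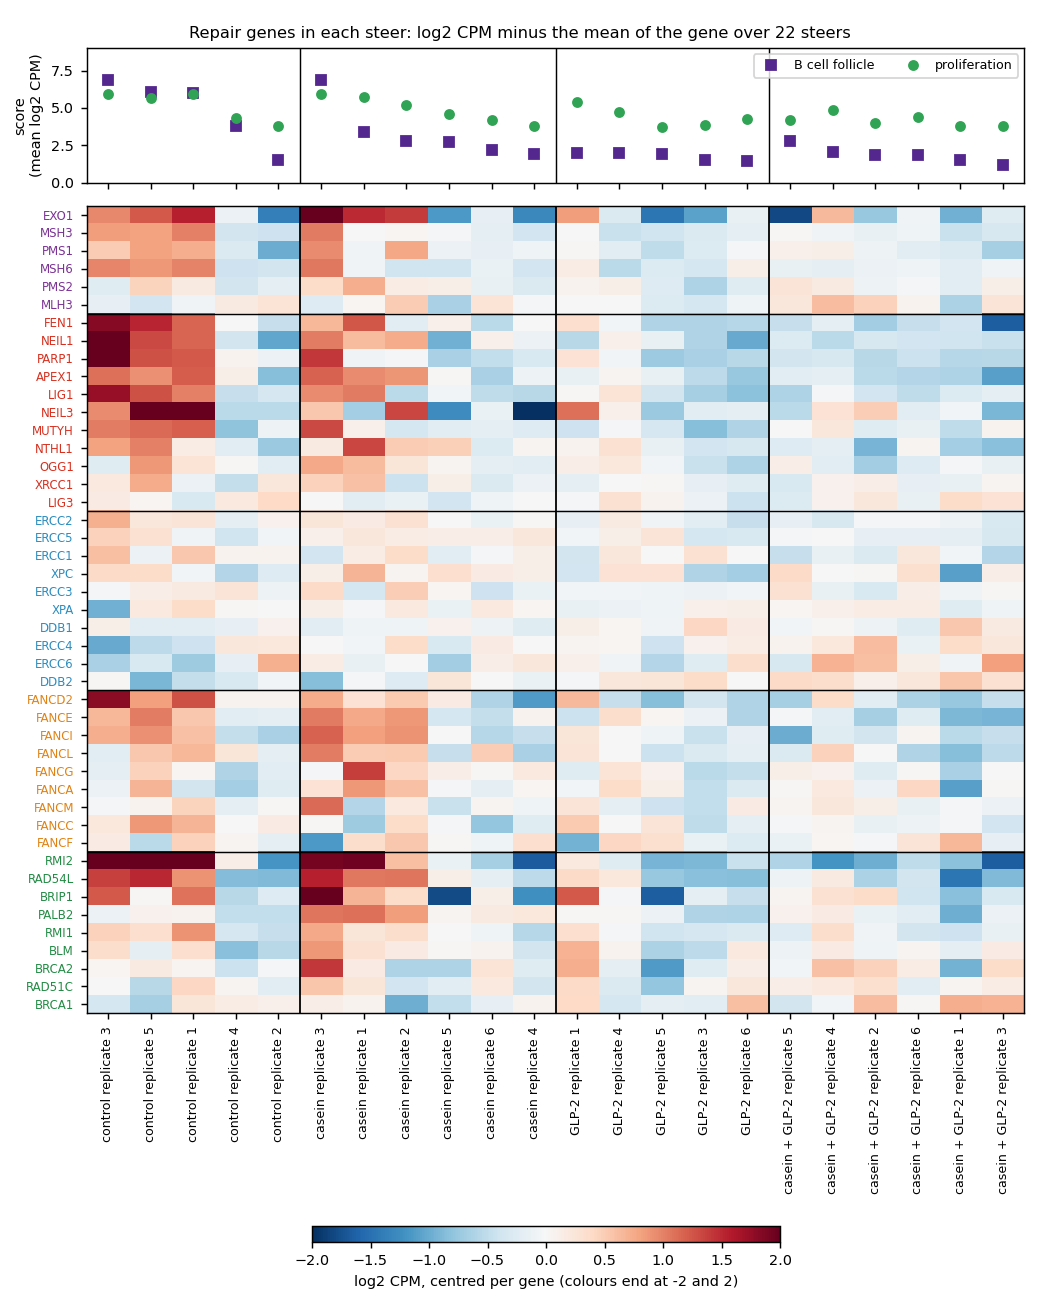
Centred log2 CPM of 45 repair genes (rows, by pathway) in 22 steers (columns, by treatment and then by B cell follicle score), with the follicle and proliferation scores above. The 4 BSA steers with follicle scores of 6.01 or more hold most of the deep red, and nucleotide excision genes are mostly pale. Among the exceptions, DDB2 is blue in control replicate 5 and casein replicate 3, XPA and ERCC4 in control replicate 3, and XPC in casein + GLP-2 replicate 1.

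The GLP-2 difference was next compared under each infusion in a model of the 4 treatments, fitted to 15086 genes, among them 46 repair genes. The gene added to the 45 was FANCB, which passed the count filter only when steers were grouped by treatment. With 0 to 28 counts per steer, its log2 difference was 1.49 ± 1.24 under water and -0.65 ± 1.12 under casein (SE). With water, GLP-2 against control, edgeR called 0 repair genes, where 0% of all genes were called, and DESeq2 called 2 (PARP1 and RMI2) of 46, against 1.92% of all genes. At an unadjusted p within 0.05 there were 11 lower and 1 higher (26.1%), against 13.9% of all genes. PARP1 had the smallest p, with a log2 difference of -1.38 ± 0.38 (edgeR adjusted p = 0.171). Leaving out control replicate 2 gave 5 calls by edgeR, where 2.79% of all genes were called, and leaving out casein replicate 3 gave 1, where 0.788% were. With casein, casein + GLP-2 against casein, edgeR called 0, and 0% of all genes, while DESeq2 called 3 of 46 (APEX1, PALB2 and RMI2), near its share of 5.91% of all genes. At an unadjusted p within 0.05, 10 repair genes were lower and 2 higher (26.1%), against 24.1% of all genes. PALB2 had the smallest p, with a log2 difference of -0.78 ± 0.23 (edgeR adjusted p = 0.118).

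These comparisons share no steers, but they come from the same fit and share its estimate of the spread. Of 46 repair genes, 31 had a lower fitted level with GLP-2 under both infusions (67.4%, against 35.6% of all genes), 6 had a higher level in both and 9 had opposite signs. RMI2 differed by -2.14 ± 0.63 under water and -1.78 ± 0.57 under casein, APEX1 by -0.90 ± 0.34 and -1.02 ± 0.31, FEN1 by -1.24 ± 0.39 and -0.91 ± 0.36, and DDB2 by 0.53 ± 0.19 and 0.46 ± 0.17. RMI2, APEX1, FEN1 and DDB2 are shown because they had passed the threshold between GLP-2 and BSA in these same steers. Their like signs under both infusions are therefore not a separate test.

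Of the 4 follicle-rich steers, 3 are among the 5 control steers and 1 among the 6 casein steers, so that they sit on the BSA side of both comparisons. Without them, 2 control and 5 casein steers were left, and 12 of 46 repair genes were lower with GLP-2 under both infusions (26.1%, against 17.5% of all genes), 7 were higher in both and 27 had opposite signs. Under water, RMI2 then differed by -0.03 ± 0.64, APEX1 by -0.0029 ± 0.36, FEN1 by -0.05 ± 0.42, PARP1 by -0.28 ± 0.24 and DDB2 by 0.34 ± 0.18. Under casein, RMI2 differed by -1.44 ± 0.47, APEX1 by -0.84 ± 0.26, FEN1 by -0.82 ± 0.31, PALB2 by -0.68 ± 0.23 and DDB2 by 0.37 ± 0.13. For RMI2, APEX1 and FEN1 under water, the standard error was larger than the difference. The casein steers left included casein replicates 1 and 2, whose mean log2 CPM of the villus enterocyte genes was 6.61 and 8.79. In this fit edgeR called 0 repair genes and 0% of all genes under either infusion. At an unadjusted p within 0.05 there were 0 lower and 1 higher under water, against 3.88% of all genes, and 10 lower and 2 higher under casein (12 of 46), against 26.3%.

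**Figure D5:**
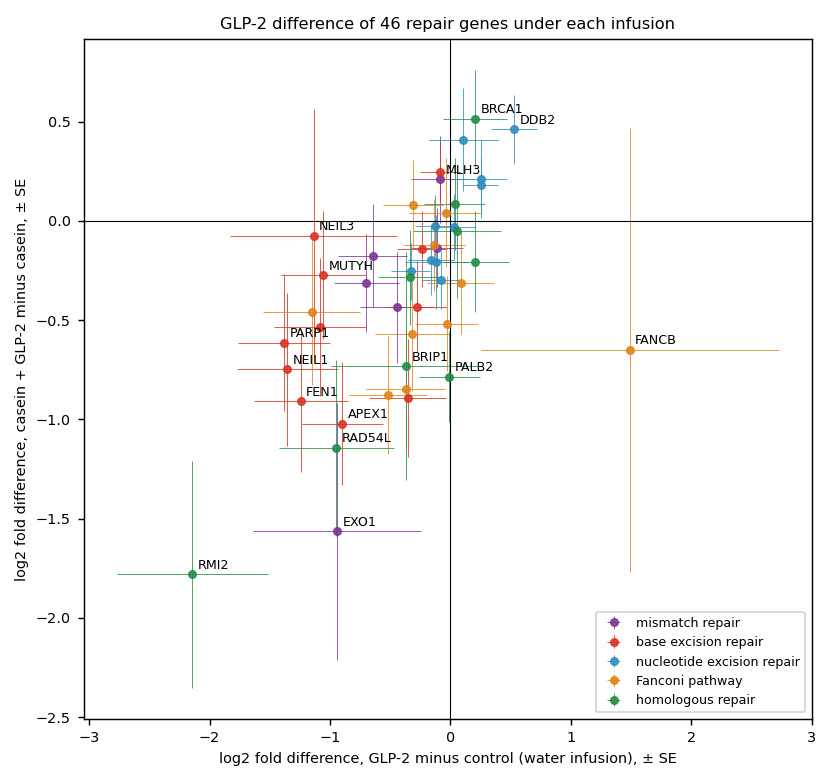
Fitted log2 difference between GLP-2 and BSA under water infusion (horizontal axis) and under casein infusion (vertical axis) for 46 repair genes, with standard errors and pathway colours. RMI2 (-2.14 and -1.78) lies at the lower left, DDB2 (0.53 and 0.46) at the upper right, and PALB2 (-0.01 and -0.78) near the vertical zero line. FANCB, with 0 to 28 counts per steer, has the widest error bars.

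PALB2 was the repair gene with the smallest p for the interaction of casein and GLP-2. It was at 11.1, 11.1, 14.4, 16.5 and 16.7 CPM in the 5 control steers and at 10.3, 10.3, 14.5, 15.9 and 16.0 CPM in the 5 GLP-2 steers, which covered the same range. The casein steers had 16.3 to 33.9 CPM with a mean of 24.7 ± 8.11 (SD, n = 6), and the casein + GLP-2 steers 7.97 to 17.6 CPM with a mean of 14.1 ± 3.38 (n = 6). The 3 highest casein steers were casein replicates 1, 2 and 3 at 33.9, 28.3 and 33.3 CPM, and the other 3 lay between 16.3 and 18.4 CPM. The interaction was -0.78 ± 0.34 on the log2 scale (edgeR adjusted p = 0.996). For the interaction, edgeR called 0 repair genes and 0% of all genes, while 1 of 46 had an unadjusted p within 0.05, against 4.28% of all genes. DESeq2 also called 0 repair genes, and its share of all genes is not given here. Without the 4 follicle-rich steers edgeR also called 0, and 4 lower and 1 higher had such a p, against 14.8% of all genes.

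Casein infusion moved no repair gene past the threshold. Against water, 0 of 45 tested repair genes were called by edgeR, which called 0% of all genes. DESeq2 also called 0 repair genes, and its share of all genes is not given here. At an unadjusted p within 0.05 in edgeR there were 2 lower and 1 higher, against 3.36% of all genes. These were PALB2 (0.50 ± 0.21 on the log2 scale, the smallest p), FANCC (-0.39 ± 0.17) and PARP1 (-0.72 ± 0.33), each with an edgeR adjusted p of 0.994. The median log2 difference was 0.00 for the repair genes and for all genes. The 95% interval of the difference lay within 1 log2 unit of 0 for 37 of the 45 genes, and among the wider ones were NEIL3 (-1.91 to 0.07) and RMI2 (-2.002 to 0.31).

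Within BSA, casein against control, edgeR called 0 repair genes and 0% of all genes, with 5 of 46 at an unadjusted p within 0.05, against 5.66% of all genes. DESeq2 also called 0 repair genes, and its share of all genes is not given here. PALB2 had the smallest p (0.84 ± 0.24 on the log2 scale, edgeR adjusted p = 0.778). Of the steers rich in follicle markers, 3 were control and 1 was casein, and PARP1 differed by -0.96 ± 0.36 in this comparison. Without them edgeR again called 0, and 1 lower and 9 higher had an unadjusted p within 0.05, against 8.93% of all genes, with 2 control steers left. Within GLP-2, casein + GLP-2 against GLP-2, edgeR called 0 repair genes and 0% of all genes. DESeq2 also called 0 repair genes, and its share of all genes is not given here. In edgeR 0 repair genes had an unadjusted p within 0.05, against 2.64% of all genes. The smallest p was that of MLH3, with a log2 difference of 0.35 ± 0.23 (edgeR adjusted p = 0.995).

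Other genes of the same pathways were counted from lists written apart from the 47. Of 90 tested, edgeR called 14 lower and 0 higher with GLP-2, against 8.37% and 5.13% of all genes, and 35 lower and 3 higher had an unadjusted p within 0.05, against 18.1% and 16.5%. With the replicate block 5 were lower and 0 higher, against 2.43% and 2.52%. The general machinery that mismatch repair shares with replication had 6 lower of 12. Among them, the clamp loader subunit RFC2 differed by -1.05 ± 0.24, the polymerase subunit POLD1 by -1.18 ± 0.29 and the sliding clamp PCNA by -1.04 ± 0.28, each with an edgeR adjusted p of 0.0260 or less.

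Further base excision genes had 1 lower of 19, the thymine glycosylase MBD4 (-0.80 ± 0.26, edgeR adjusted p = 0.0420), while HMGB1 differed by -0.47 and the polymerase subunit POLE2 by -0.77 without passing. Among further nucleotide excision genes, the transcription coupling factor XAB2 (-0.55 ± 0.16) and the TFIIH subunit GTF2H4 (-0.67 ± 0.19) were lower, each with an edgeR adjusted p of 0.0307 or less. Further Fanconi genes had 3 lower of 16, all DNA-binding partners of FANCM: FAAP24 (-1.002 ± 0.22), CENPX (-0.70 ± 0.19) and CENPS (-1.04 ± 0.30). Further homologous repair genes had 1 lower of 17, RAD51AP1 (-0.95 ± 0.26), with XRCC3 at -0.70 and ATRIP at -0.55 not passing. The 10 end joining genes, which rejoin breaks without a template and act also in resting cells, had 0 calls by edgeR, and 2 lower and 1 higher at an unadjusted p within 0.05, which is near the 34.6% of all genes with such a p. Those genes were PRKDC at 0.33 ± 0.13, XRCC6 at -0.26 ± 0.11 and POLL at -0.45 ± 0.22, and the median log2 difference of the 10 was 0.02.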

How the data were processed

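RNA-seq of jejunal mucosa from 22 steers was used. The authors aligned poly(A) RNA reads to ARS-UCD1.2 with HISAT2 (2.0.5) and counted them with featureCounts (1.5.0-p3), per the labels. The deposited counts are whole numbers without normalization, and the deposited FPKM values equal counts divided by gene length and library total, times 1 factor per library. RNA integrity varied widely among the samples, as the authors report, and its part in the results was not tested. The library kit is strand-specific, but whether counting used strand is not given in the sources used here. Of 46 repair genes, 17 overlap a gene on the opposite strand and 4 one on the same strand.

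Counts were analysed in R 4.3.3 with edgeR 4.0.16: filterByExpr (minimum count 10), TMM, quasi-likelihood tests over all genes tested, Benjamini-Hochberg adjustment and a threshold of 0.05. CPM are TMM-normalized, and log2 CPM use a prior count of 2. Each injection comparison pooled the infusions, and each infusion comparison the injections. The 4 treatments were fitted together for the contrasts. Alternatives used DESeq2 1.42.0, limma 3.58.1, other filters and scalings, 2 marker scores as covariates, and omission of steers. The procedure was tested on simulated data.

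The replicate numbers are the body weight blocks that the labels name. After removal of treatment means, the mean correlation was 0.0290 over 30 pairs of a block (-0.497 to 0.424) and -0.00584 over 151 other pairs. No pair of libraries was identical.

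Members, lists and tests were chosen with earlier results of these data known. Genes given in full are, per pathway, up to 3 called genes with the smallest p for GLP-2 against BSA (or the smallest p where none is called) and the largest opposite difference, with the smallest p per other contrast, and 3 per list of further genes. A planned look at promoter motifs was not run here. The result of 1 further gene is not reported here.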

Additional observations from a re-analysis of the deposited data

Results flagged for a closer look

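Within a treatment, log2 CPM of the 46 repair genes was checked for a single steer far from the others by Dixon's test, in 184 groups of 5 or 6 steers, of which chance alone flags about 1 in 20. This singled out 12 values.

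Casein replicate 3 was the highest casein steer for MSH3 (6.05, next 5.05), MSH6 (6.71, next 5.57), MUTYH (4.81, next 3.59) and PARP1 (7.81, next 6.38), and the lowest for FANCF (2.10, next 3.17). It is the only casein steer with a B cell follicle score above 6. Casein replicate 1 was the highest for FANCG (6.86, next 5.89).

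Casein + GLP-2 replicate 1 was the lowest of its treatment for XPC (4.83, next 5.92), FANCA (3.37, next 4.33) and PALB2 (3.02, next 3.76), and casein + GLP-2 replicate 3 was the lowest for FEN1 (2.32, next 3.28). Control replicate 3 was the lowest control steer for XPA (4.38, next 5.34), and GLP-2 replicate 5 the lowest GLP-2 steer for ERCC4 (4.46, next 4.92).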

How the results depend on the processing

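Between GLP-2 and BSA, 10 repair genes were lower and 1 higher, where 8.37% of all genes were lower. The lower count, with the share of all genes called lower in the same fit, was 9 with RLE size factors (8.77%) or with infusion as a factor (8.2%), 14 with upper quartile normalization (10.2%), 15 with DESeq2 (12.4%) or with at least 10 counts in every steer (12.8%), 6 without a filter (4.44%), 16 with a gene length correction (13.2%), 16 at a threshold of 0.10 (14.2%), and 4 with limma on log2(FPKM + 1) (6.33%) or log2(FPKM + 0.1) (5.93%). With the replicate block it was 3 lower (2.43%) and 0 higher, with the block and the length correction 4 (6.12%) and 0, and with DESeq2 and the block 10 (11.1%) and 1. It was 0 lower and 0 higher with the B cell follicle score as a covariate, with the proliferation score as a covariate, and without the 4 follicle-rich BSA steers, where 0% of all genes were called. The last setting and DESeq2 with the block were chosen after seeing the data. Leaving out 1 steer gave 3 (without control replicate 3) to 17 (without control replicate 2) lower genes. It also gave 16 without control replicate 4, 5 without control replicates 1 or 5, casein replicates 1 or 3, casein + GLP-2 replicates 1 or 3, or GLP-2 replicates 3 or 6, and 6 without casein + GLP-2 replicate 2. These lower counts are given without the share of all genes in each fit, so they cannot be read as particular to repair genes. The higher count was 1 in each of the 22 fits, and APEX1, FEN1, RMI2 and DDB2 passed in all of them. For the GLP-2 difference under water DESeq2 called 2 repair genes, and leaving out 1 steer in edgeR gave 0 to 5. Under casein DESeq2 called 3, and leaving out 1 steer gave 0 each time. The other 4 comparisons had 0 under every setting run. The cause of these shifts was not tested.

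Signs of the log2 difference turned in genes that had not passed and, under the follicle covariate, in LIG1 (0.11) and PARP1 (0.10). That covariate also gave MSH3 0.17, MSH6 0.32, MLH3 -0.067, PMS1 0.081, PMS2 0.0095, EXO1 0.0075, MUTYH 0.17, NEIL3 0.62, ERCC3 0.048, ERCC4 -0.029, FANCC 0.17, FANCF -0.15, FANCM 0.17, BRCA2 0.38, BRIP1 0.54, BLM 0.27 and RMI1 0.13. The proliferation covariate gave MSH6 0.041, PMS2 0.064, EXO1 0.019, NEIL3 0.44, FANCA 0.043, FANCC 0.053, FANCF -0.10, FANCM 0.046, BRCA2 0.27, BRIP1 0.32, BLM 0.30 and RMI1 0.079. Without the 4 steers MSH6 had 0.16, MLH3 -0.058, MUTYH 0.013, NEIL3 0.30, FANCC 0.10, FANCF -0.12, FANCM 0.10, BRCA2 0.27, BRIP1 0.18 and BLM 0.15. The length correction gave MLH3 -0.077, LIG3 -0.0042, FANCF -0.014 and RAD51C -0.033, and with the block MLH3 -0.017 and RAD51C -0.019. Upper quartile normalization gave FANCF -0.048 and RAD51C -0.0012, the stricter filter FANCF -0.024, limma XPA 0.013 and BRCA2 0.00081 with pseudocount 1 and XPA 0.017 with 0.1, and the replicate block BRCA2 0.010 in edgeR and 0.010 in DESeq2. Leaving out 1 steer turned MLH3 (-0.0060 to 0.14), XPA (-0.076 to 0.037), FANCF (-0.10 to 0.073), BRCA2 (-0.13 to 0.18), RAD51C (-0.0089 to 0.12) and BLM (-0.15 to 0.043).

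Depth limits FANCB, NEIL3, BRIP1 and EXO1 most, since their counts are lowest.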
